A study of Mus musculus with 12 samples.

Results

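Genes of the neuroblasts of the subventricular zone were followed across 12 RNA-seq libraries of mouse striatum. The 9 genes, given by symbol, were Dcx, Dlx1, Dlx2, Sox11, Sox4, Tubb3, Cd24a, Igfbpl1 and Sp8. All 9 were among the 18537 genes with enough counts to be tested, of 54532 listed. The libraries formed 4 groups of 3, all from C57BL/6J mice, and PolyA+ RNA was sequenced from each striatum sample. The 3d-SN011 group had transient middle cerebral artery occlusion (tMCAO, a stroke model in which the artery that feeds the striatum is closed temporarily) and received SN-011, which blocks STING, an adaptor of innate immunity. The SN011 group carries the same treatment in its labels, tMCAO with SN-011, and its labels lack the prefix 3d, whose meaning they do not explain. The vehicle group had tMCAO with PBS, and the sham group had a sham operation with PBS. Ages, doses, times after surgery and the number of animals per library were not found in the labels, so the p-values measure only the spread between these libraries. The 3d-SN011 and SN011 arms cannot be told apart from whatever else differed between them. The prefix also sets 3d-SN011 apart from vehicle and sham, and there its part cannot be told apart from that of the treatment.

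Neural stem cells in the wall of the lateral ventricle, next to the striatum, give rise to transit-amplifying progenitors and these to neuroblasts. Neuroblasts migrate in chains to the olfactory bulb, where they become interneurons, and in rodents some are known to turn into the striatum after a stroke. The homeobox factors Dlx1 and Dlx2 and the zinc-finger factor Sp8 act in specifying these inhibitory neurons, the SoxC factors Sox4 and Sox11 act in immature neurons, doublecortin (Dcx) binds the microtubules of migrating neurons and Tubb3 is the neuronal beta-tubulin. Several of the genes are used by other cells too. Tubb3 is made by mature neurons and Cd24a, a small surface glycoprotein, by ependymal cells and some leukocytes. Dlx1 and Dlx2 are also expressed in other forebrain inhibitory neurons. In bulk tissue, fewer cells of a type and less RNA per cell cannot be told apart.

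Sequences upstream of the RefSeq starts of 5 genes are shown, because the values below fall to both sides among them: Dlx2 and Sox4 were called higher in the 3d-SN011 group than in vehicle, Tubb3 was called lower, and Sox11 and Dcx were not called. They are RefSeq sequences of GRCm38.p6, printed 5′ to 3′ on the gene's own strand, and 7 of the 9 genes had such a window. Bases that GENCODE places in an untranslated region were left off, so the windows stop 14 bases before the RefSeq start for Sox4, 129 for Tubb3 and 92 for Dcx, while the RefSeq start of Sox11 lies upstream of the GENCODE start given for that gene. Capitals mark matches, on either strand and by letters alone, to CCAAT (the CCAAT box), to GGGCGG (the GC box), to TATAAA (the TATA box) or to TAATTA (a homeodomain core). The windows lie at chr2:71546755-71547004 (minus strand) for Dlx2, chr13:28953714-28953949 (minus) for Sox4, chr12:27342719-27342968 (minus) for Sox11, chr8:123411303-123411423 (plus) for Tubb3 and chrX:143933312-143933469 (minus) for Dcx.
Dlx2: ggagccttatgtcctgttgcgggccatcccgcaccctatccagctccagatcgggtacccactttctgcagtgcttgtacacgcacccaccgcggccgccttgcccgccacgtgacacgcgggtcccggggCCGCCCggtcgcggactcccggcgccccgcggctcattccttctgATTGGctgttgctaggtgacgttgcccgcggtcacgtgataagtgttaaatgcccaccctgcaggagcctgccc
Sox4: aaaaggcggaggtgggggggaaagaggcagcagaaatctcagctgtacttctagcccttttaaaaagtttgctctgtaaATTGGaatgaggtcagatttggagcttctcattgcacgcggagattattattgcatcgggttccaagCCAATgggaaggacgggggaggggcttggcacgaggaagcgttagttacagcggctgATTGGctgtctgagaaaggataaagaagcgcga
Sox11: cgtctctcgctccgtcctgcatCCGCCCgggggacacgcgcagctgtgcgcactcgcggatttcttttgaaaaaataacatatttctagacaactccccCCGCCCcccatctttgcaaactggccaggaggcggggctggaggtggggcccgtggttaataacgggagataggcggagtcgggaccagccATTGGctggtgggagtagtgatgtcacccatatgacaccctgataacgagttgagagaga
Tubb3: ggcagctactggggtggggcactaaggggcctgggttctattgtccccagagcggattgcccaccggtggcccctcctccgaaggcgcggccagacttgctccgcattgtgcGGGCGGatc
Dcx: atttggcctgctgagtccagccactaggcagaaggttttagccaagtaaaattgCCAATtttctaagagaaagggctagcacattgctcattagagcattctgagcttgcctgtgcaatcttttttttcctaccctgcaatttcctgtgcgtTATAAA
The Sox4 window of 236 bases held 3 CCAAT matches, a motif present in 32.71% of 32851 mouse promoter windows of that length. Dlx2 held 1 CCAAT and 1 GGGCGG match and Sox11 1 CCAAT and 2 GGGCGG matches in 250 bases, where 33.85% of promoters held CCAAT and 32.74% held GGGCGG. The Tubb3 window of 121 bases held 1 GGGCGG match (12.95% of promoters at that length). In the 158 bases of Dcx were 1 CCAAT match (21.17%) and 1 TATAAA match (7.571%). TAATTA, the core letters bound by many homeodomain proteins, was in none of the 5 windows, against 2.551% to 4.84% of promoters of those lengths. The motifs did not overlap each other in these windows, and a match is a description of letters, not a binding site.

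Totals ran from 15806076 to 18622053 counts per library. The 3d-SN011 libraries stood apart from the other 9 on the first principal component, which held 70.6% of the variance, and SN011 replicate 3 lay between them and the rest. Levels are given in CPM, counts divided by a library's total after TMM scaling. They are relative levels, so a rise or fall below is relative to the other RNA of a library. The summed level of 10 markers of striatal projection neurons, the principal neurons of the labelled tissue, was 353 to 2063 CPM in 3d-SN011, 4372 to 7504 CPM in SN011, 7427 to 7639 CPM in vehicle and 7068 to 7731 CPM in sham. All 10 were detected in each group, and the lowest SN011 value belonged to replicate 3.

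Divided by the length of the annotated exons, the 9 genes covered a wide range. In sham, Tubb3 stood at 111 ± 3.57 CPM per kb, Cd24a at 6.82 ± 1.07, Dlx1 at 5.53 ± 0.740, Sox11 at 4.81 ± 0.478, Dlx2 at 4.41 ± 0.549, Sox4 at 4.27 ± 0.461, Dcx at 3.32 ± 0.527, Igfbpl1 at 1.78 ± 0.234 and Sp8 at 0.899 ± 0.245 CPM per kb (SD, n = 3). Neighbours in the order from Cd24a down to Dcx lay closer than the sum of their SDs. In 3d-SN011 the order of levels per kb was Tubb3 at 67.9 ± 9.06, Cd24a at 27.0 ± 7.04, Sox4 at 10.6 ± 3.49, Dlx2 at 9.62 ± 5.09, Dlx1 at 7.50 ± 3.74, Sox11 at 7.46 ± 2.53, Igfbpl1 at 5.07 ± 1.75, Dcx at 3.39 ± 1.33 and Sp8 at 1.08 ± 0.362 CPM per kb. From Sox4 to Dcx the neighbours were closer than the sum of their SDs, so only Tubb3, Cd24a and Sp8 were set off from the rest by more than that. Tubb3 had the highest level per kb in all 12 libraries of the 4 groups; its level is not one of neuroblasts alone, since mature neurons hold it too.

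The comparison of 3d-SN011 with vehicle set SN-011-treated occlusion in the 3d arm against occlusion with PBS, groups that the prefix 3d also separates. Cd24a, Igfbpl1, Sox4 and Dlx2 rose, Tubb3 fell, and Dcx, Dlx1, Sox11 and Sp8 did not pass the test. That is 5 of 9 called by edgeR's quasi-likelihood test at an adjusted p under 0.05, 4 higher and 1 lower. Over all genes tested 57.1% were called, 28.9% higher and 28.2% lower, so a count of 5 is near the background. Groups did not overlap in 4 of the 9, 3 above and 1 below, beside 59.4% of all genes tested. The median log2 fold change of the 9 was 0.45, beside 0.0093 over all genes tested. It lay between the quartiles of all genes tested, -0.62 and 0.76.

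Cd24a, a glycoprotein linked to the membrane by a lipid anchor, lies on chromosome 10 (43578284 to 43584265, plus strand, GRCm38). Its level was 80.9, 48.6 and 79.3 CPM in the 3d-SN011 replicates 1, 2 and 3, 19.1, 26.8 and 33.1 CPM in SN011, 22.0, 34.0 and 25.2 CPM in vehicle and 14.8, 20.3 and 17.7 CPM in sham. Every 3d-SN011 library was above every library of the other groups, and every vehicle library was above every sham library. In edgeR's test the log2 fold change of 3d-SN011 over vehicle was 1.36 ± 0.24 (SE, adjusted p = 0.000428). Over sham it was 1.98 ± 0.25 (edgeR adjusted p = 3.49e-05), and over SN011 1.40 ± 0.24 (edgeR adjusted p = 0.000703). The call against vehicle held in all 12 alternatives, with log2 fold changes from 1.22 to 1.56.

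Igfbpl1, a secreted protein of the insulin-like growth factor binding protein superfamily, lies on chromosome 4 (45809468 to 45826923, minus strand). It had 23.0, 12.7 and 13.7 CPM in the 3d-SN011 replicates, 7.22, 6.67 and 9.37 CPM in SN011, 5.56, 6.12 and 8.24 CPM in vehicle and 4.97, 5.94 and 6.47 CPM in sham. The 3d-SN011 libraries were all above the rest, and those of SN011 were also all above those of sham. In edgeR's test 3d-SN011 over vehicle gave a log2 fold change of 1.31 ± 0.25 (SE, edgeR adjusted p = 0.000785). Over sham it was 1.51 ± 0.26 (edgeR adjusted p = 0.000293), and over SN011 1.09 ± 0.25 (edgeR adjusted p = 0.00387).

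Sox4, a SoxC transcription factor of immature neurons that oligodendrocyte-lineage cells also express, lies on chromosome 13 (28948919 to 28953713, minus strand). It had 69.4, 36.7 and 46.9 CPM in the 3d-SN011 replicates, 22.1, 29.2 and 35.6 CPM in SN011, 18.2, 18.1 and 25.9 CPM in vehicle and 19.2, 23.0 and 19.2 CPM in sham. The lowest 3d-SN011 value, in replicate 2, lay just above the highest SN011 value, in replicate 3. The non-coding gene Gm26735 overlaps exons of Sox4 on the opposite strand and had 0 counts in every library. How reads of that overlap were counted is not known. The log2 fold change of 3d-SN011 over vehicle was 1.30 ± 0.24 (SE, edgeR adjusted p = 0.000548), and over sham 1.32 ± 0.24 (edgeR adjusted p = 0.000482). Against SN011 it was 0.81 ± 0.24 (edgeR adjusted p = 0.0133), and this call was lost without 3d-SN011 replicate 1 (0.53, adjusted p = 0.0698), without SN011 replicate 1 (adjusted p = 0.0685) and in a fit of only the 6 libraries compared (adjusted p = 0.0624).

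Sox11, the SoxC paralog, lies on chromosome 12 (27334264 to 27342574, minus strand). It had 86.1, 46.9 and 53.2 CPM in the 3d-SN011 replicates, 32.0, 48.6 and 49.8 CPM in SN011, 43.0, 53.1 and 40.0 CPM in vehicle and 35.6, 41.0 and 43.4 CPM in sham. The 3d-SN011 values overlapped those of SN011 and vehicle, and all were above sham. The log2 fold change was 0.45 ± 0.22 over vehicle (SE, edgeR adjusted p = 0.103) and 0.63 ± 0.23 over sham, which was called (edgeR adjusted p = 0.0287). The call against sham was lost without 3d-SN011 replicate 1 (0.32, adjusted p = 0.170), sham replicate 1 (adjusted p = 0.1004) or sham replicate 2 (adjusted p = 0.0657) and in a fit of the 6 libraries compared (adjusted p = 0.0542), and Sox11 was called against vehicle without 3d-SN011 replicate 2 (0.62, adjusted p = 0.0356).

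Dlx2 lies on chromosome 2 (71543408 to 71546754, minus strand), beside Dlx1 (71528113 to 71533981, plus strand), and the pair is transcribed towards each other. Dlx2 had 44.0, 16.9 and 21.5 CPM in the 3d-SN011 replicates, 8.84, 17.4 and 21.3 CPM in SN011, 11.9, 12.4 and 17.4 CPM in vehicle and 12.1, 14.4 and 11.4 CPM in sham. Replicate 1 of 3d-SN011 was far above the rest, and replicate 2 lay below the highest vehicle library. The log2 fold change over vehicle was 0.98 ± 0.36 (SE, edgeR adjusted p = 0.0320) and over sham 1.12 ± 0.36 (edgeR adjusted p = 0.0171). Against vehicle the call was lost without 3d-SN011 replicate 1 (0.47, adjusted p = 0.224), vehicle replicate 1 (adjusted p = 0.104) or vehicle replicate 2 (adjusted p = 0.0991). Against sham it was lost without 3d-SN011 replicate 1 (0.61, adjusted p = 0.116), sham replicate 1 (adjusted p = 0.0522) or sham replicate 3 (adjusted p = 0.0583).

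Dlx1 had 63.7, 27.2 and 30.5 CPM in the 3d-SN011 replicates, 18.03, 35.5 and 39.6 CPM in SN011, 31.6, 32.1 and 32.0 CPM in vehicle and 25.9, 33.9 and 29.8 CPM in sham. Replicate 1 of 3d-SN011 was the highest library and replicates 2 and 3 lay below all vehicle libraries. Over vehicle the log2 fold change was 0.34 ± 0.31 (SE, edgeR adjusted p = 0.368), and without 3d-SN011 replicate 1 it was -0.14. The antisense gene Dlx1as overlaps exons of Dlx1, and since it is not known whether the counting used strand, reads of the pair cannot be told apart. Dlx1as averaged 3.55 CPM in 3d-SN011 and 3.75 CPM in vehicle (edgeR adjusted p = 0.822).

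Dcx, on chromosome X (143855842 to 143933311, minus strand), is the gene most used to mark migrating neuroblasts. It had 62.2, 31.2 and 35.2 CPM in the 3d-SN011 replicates, 24.1, 47.3 and 50.6 CPM in SN011, 38.7, 51.1 and 45.2 CPM in vehicle and 34.4, 46.5 and 45.2 CPM in sham. The groups overlapped in all comparisons, and in 3d-SN011 replicate 1 was the highest of the 12 libraries while replicates 2 and 3 were below all vehicle libraries. Its log2 fold change over vehicle was -0.07 ± 0.29 (SE, edgeR adjusted p = 0.845), with a range of -0.44 to 0.11 over the alternatives.

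Tubb3, on chromosome 8 (123411424 to 123422015, plus strand), moved the other way. It had 109, 129 and 142 CPM in the 3d-SN011 replicates, 199, 211 and 176 CPM in SN011, 199, 177 and 225 CPM in vehicle and 208, 201 and 214 CPM in sham. All 3 of the 3d-SN011 libraries were below every other library. Its log2 fold change was -0.66 ± 0.13 over vehicle (SE, edgeR adjusted p = 0.000926), -0.71 ± 0.13 over sham (edgeR adjusted p = 0.000537) and -0.62 ± 0.13 over SN011 (edgeR adjusted p = 0.00221). Beta-tubulin genes resemble each other in sequence, and the labels do not say how reads matching several genes were counted. Beside it, 10 of 10 markers of mature neurons fell in 3d-SN011 against vehicle, where 28.2% of all genes tested were called lower. Their median log2 fold change was -1.86 (Map2, a dendritic microtubule protein, -1.40 ± 0.15, edgeR adjusted p = 1.95e-05, and Nefl, a neurofilament subunit, -2.47 ± 0.23, edgeR adjusted p = 1.23e-05). Their part in the Tubb3 value was not tested.

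Sp8, on chromosome 12 (118846329 to 118852576, plus strand), was the lowest of the 9. It had 6.65, 3.36 and 4.79 CPM in the 3d-SN011 replicates, 3.35, 5.21 and 5.10 CPM in SN011, 4.06, 2.86 and 6.11 CPM in vehicle and 3.15, 5.33 and 3.81 CPM in sham, from 44 to 130 counts a library. The groups overlapped throughout, and the log2 fold change of 3d-SN011 over vehicle was 0.18 ± 0.34 (SE, edgeR adjusted p = 0.661).

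**Figure D1:**
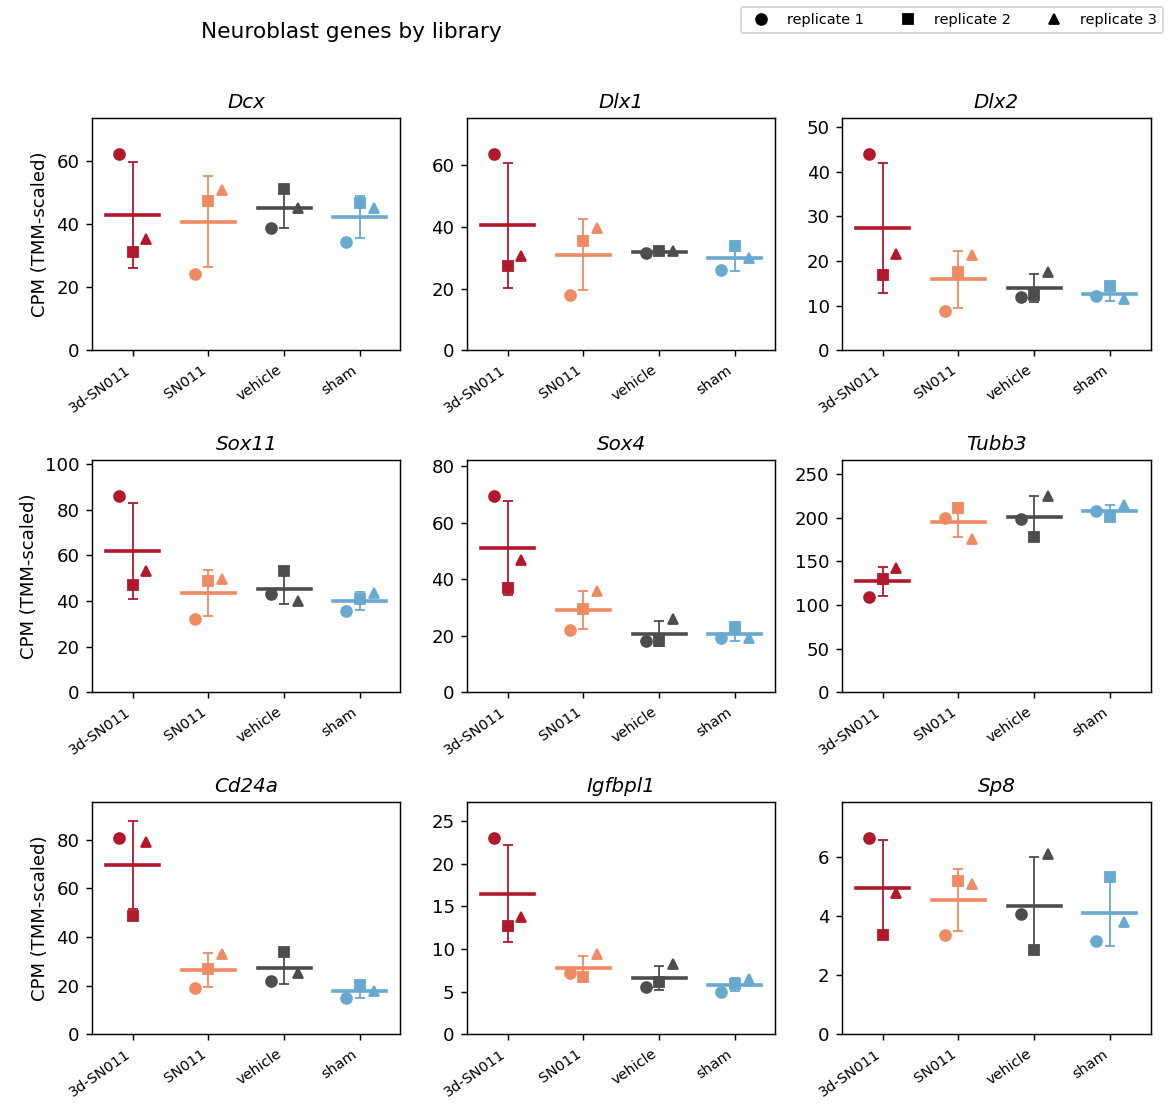
Level of each of the 9 genes by library in TMM-scaled CPM (vertical axis, linear from 0) for 3d-SN011, SN011, vehicle and sham (horizontal axis); points are libraries with the replicate number as shape, horizontal lines are group means and bars are SDs (n = 3). In Cd24a, Igfbpl1 and Sox4 all 3d-SN011 points lie above the other groups and in Tubb3 below them, and replicate 1 is the highest 3d-SN011 point in 8 of 9 genes.

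Against sham, 6 of 9 were called for 3d-SN011, 5 higher and 1 lower, where 57.6% of all genes tested were called (29.8% higher and 27.9% lower), and groups did not overlap in 6 of 9 (63.3% of all genes tested). Against SN011, 4 of 9 were called, 3 higher and 1 lower, where 46.4% of all genes tested were called (23.6% higher and 22.9% lower), and groups did not overlap in the same number (50.3% of all genes tested). These comparisons share the 3d-SN011 libraries. Against SN011, Dlx2 had a log2 fold change of 0.79 ± 0.35 (edgeR adjusted p = 0.0846) and Sox11 of 0.51 ± 0.22 (edgeR adjusted p = 0.0781), and both were called without a filter on low counts (adjusted p = 0.0264 and 0.0433), with limma voom (adjusted p = 0.00898 and 0.0177) and without 3d-SN011 replicate 2 (adjusted p = 0.0305 and 0.0292). Dlx2 was also called without SN011 replicate 3 (adjusted p = 0.0405). The smallest p an exact two-sided permutation test of 3 against 3 libraries allows is 0.1, so no such test was used for single genes.

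The question whether SN-011 without the prefix 3d differed from vehicle gave 0 of 9 called by edgeR, beside 0.0162% of all genes tested, and 0 had an unadjusted p under 0.05 (11.1% of all genes). That share is of 3 genes, and the count over all genes depended on the processing, at 601 without a filter, 443 with DESeq2, 1179 with limma voom and 0 to 513 with a replicate left out. All of these called 0 of the 9. The largest difference was in Sox4 with a log2 fold change of 0.49 ± 0.24 (SE, edgeR adjusted p = 0.496). In SN011, replicate 1 held the lowest value in 7 of 9 genes and replicate 3 the highest in 7 of 9, and Dcx alone spanned 24.1 to 50.6 CPM. Compared with sham, SN011 had 0 of 9 called (0.113% of all genes), and 1 had an unadjusted p under 0.05 (12.8% of all genes), Cd24a, with a log2 fold change of 0.58 ± 0.25 (SE, edgeR adjusted p = 0.338). The groups did not overlap in 1 of 9, Igfbpl1, beside 25.6% of all genes tested.

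For occlusion alone, vehicle against sham, edgeR called 0 of 9 and 0% of all genes tested, while 467 genes (2.52%) had an unadjusted p under 0.05. DESeq2 and limma voom called 0 of the 9 here also. Among the 9 it was again Cd24a that had an unadjusted p under 0.05, with 22.0 to 34.0 CPM in vehicle and 14.8 to 20.3 CPM in sham, a log2 fold change of 0.62 ± 0.25 (SE, edgeR adjusted p = 1.00). Cd24a was also the 1 of 9 whose groups did not overlap, beside 13.2% of all genes tested. The other 8 lay between -0.05 for Tubb3 and 0.20 for Igfbpl1. Of 8 reactive astrocyte and 8 microglial markers, which occlusion is known to raise, edgeR, DESeq2 and limma voom each called 0 and 0 in this comparison, and 1 of the astrocyte and 0 of the microglial markers had an unadjusted p under 0.05 in edgeR. The astrocyte markers summed to 222, 216 and 664 CPM in the vehicle replicates and 144, 177 and 196 CPM in sham, without overlap. The microglial markers summed to 370, 366 and 439 CPM in vehicle and 436, 396 and 410 CPM in sham.

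**Figure D2:**
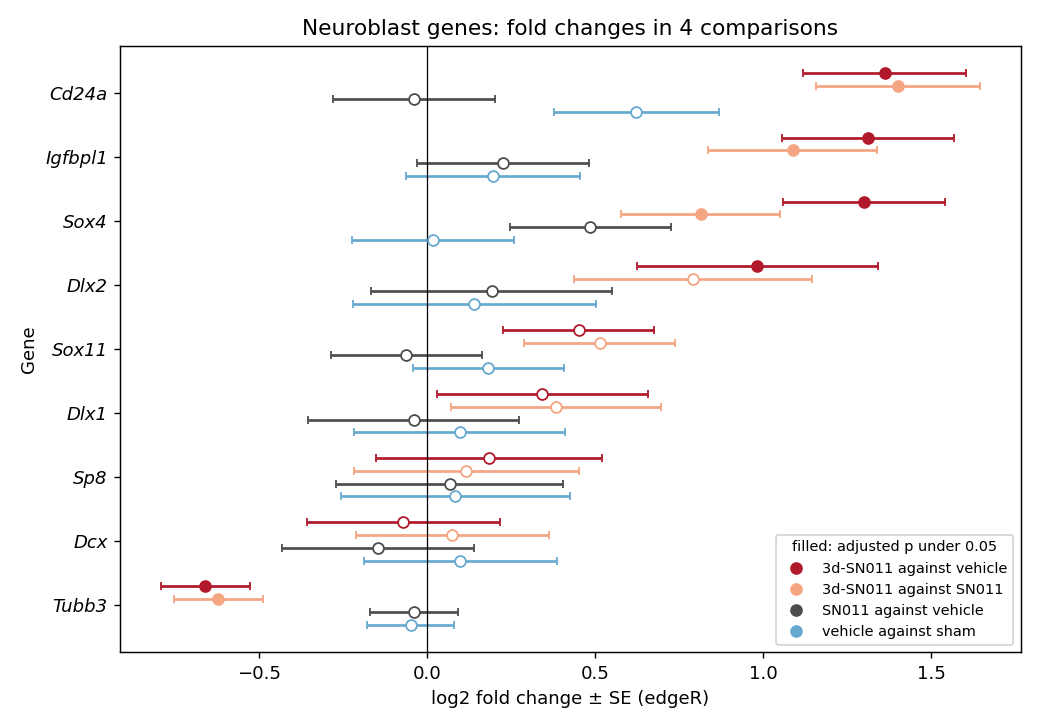
Log2 fold change of each gene (rows) with its SE from edgeR in 4 comparisons; filled points have an adjusted p under 0.05. Filled points appear only in comparisons of 3d-SN011, at 0.98 and above for 4 genes against vehicle and at -0.66 for Tubb3.

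Within a library, ratios of levels per kb show how the 9 genes moved relative to each other. Igfbpl1 over Dcx was 1.44, 1.58 and 1.52 in the 3d-SN011 replicates, 1.17, 0.549 and 0.720 in SN011, 0.559, 0.465 and 0.710 in vehicle and 0.563, 0.497 and 0.557 in sham. The 3d-SN011 replicates lay close together in this ratio although Dcx and Igfbpl1 each varied among them, and none overlapped another group. Dlx2 over Dlx1 was 1.31, 1.17 and 1.33 in 3d-SN011, against 0.710, 0.728 and 1.03 in vehicle, and Sox4 over Sox11 was 1.40, 1.36 and 1.53 in 3d-SN011, against 0.732, 0.590 and 1.12 in vehicle. Cd24a over Dcx was 6.37, 7.64 and 11.1 in 3d-SN011, against 2.78, 3.26 and 2.74 in vehicle. In each of these ratios every 3d-SN011 library lay above every vehicle library. Each set a gene called higher against vehicle over a gene that was not called, so this separation is no separate evidence. Dlx1 over Dcx was 2.40, 2.05 and 2.03 in 3d-SN011, against 1.91, 1.47 and 1.66 in vehicle. A within-library ratio shows unequal change and does not say which gene of the pair changed. Dcx over Tubb3 overlapped, at 0.0844, 0.0356 and 0.0365 in 3d-SN011, against 0.0288, 0.0426 and 0.0297 in vehicle.

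**Figure D3:**
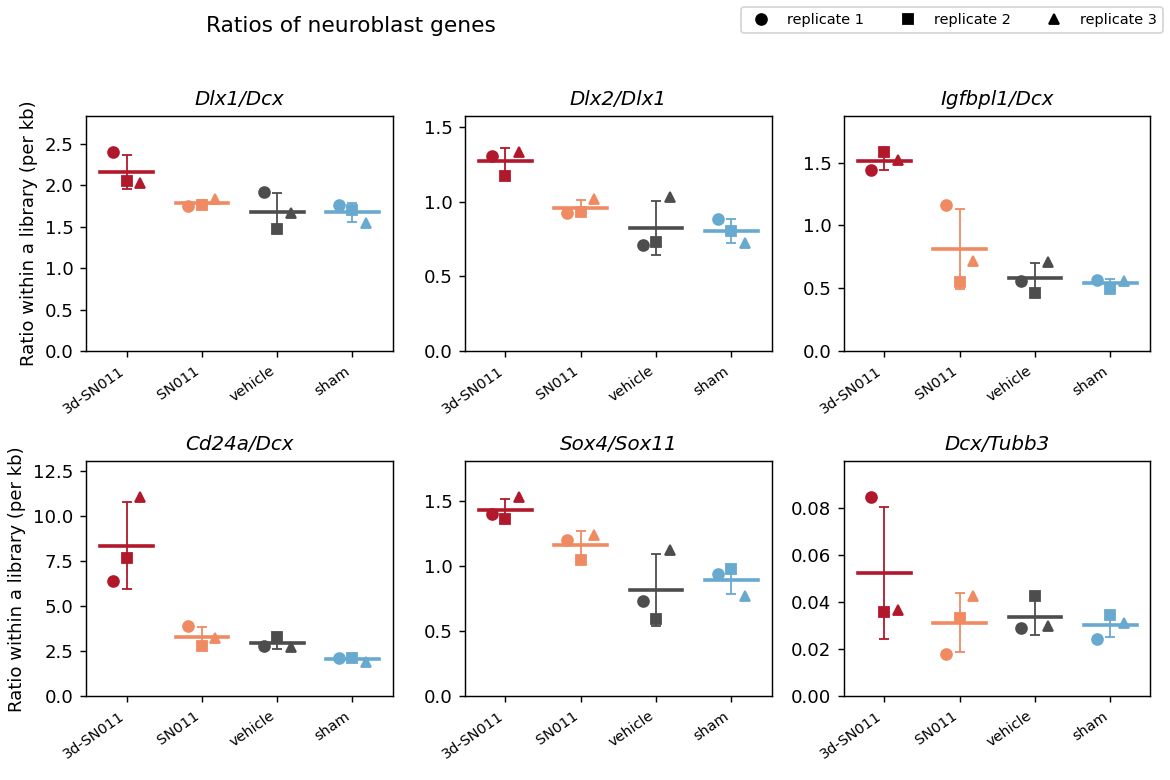
Ratio of levels per kb of 6 gene pairs by library (vertical axis, linear from 0) for 3d-SN011, SN011, vehicle and sham; points are libraries, lines are means and bars are SDs (n = 3). Igfbpl1 over Dcx is 1.44 to 1.58 in 3d-SN011 and at most 1.17 elsewhere, whereas Dcx over Tubb3 overlaps between groups.

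Several of the 9 genes moved together between replicates of a group. In 3d-SN011, replicate 1 was highest in 8 of the 9 genes and lowest in Tubb3. Deviations of log2 CPM from the group means were compared over 12 libraries as a description, with points that share a group mean and a library. Taking off the group means leaves no difference between groups in these values. The pairs named were picked from 36 and the nearest genes were the highest of all genes compared, with no baseline correlation computed. Dcx and Dlx1 had a Pearson correlation of 0.96 and a Spearman correlation of 0.98, and 0.92 (Pearson) without the 2 libraries farthest from the median of Dcx. Dcx and Sox11 had 0.95, Dlx2 and Sox4 0.97, and Dcx and Tubb3 -0.51. Other pairs were weaker, such as Cd24a and Sp8 at 0.45 and Sox11 and Sp8 at 0.46. Without the 2 libraries farthest from the median of the first gene, these became 0.10 and 0.15. Vit (0.98), Dlx1 and Sox11 were the genes whose deviations most resembled those of Dcx, and Fbln7 (0.98), Vit (0.96) and Dcx those of Dlx1. The nearest gene was Sox4 for Dlx2 (0.97), Mob3a for Sox4 (0.97), Hydin, a gene of motile cilia, for Sox11 (0.97), Ccdc33 for Cd24a (0.93), Snx29 for Igfbpl1 (0.96), Sdk2 for Sp8 (0.98) and Tmem222 for Tubb3 (0.96).

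**Figure D4:**
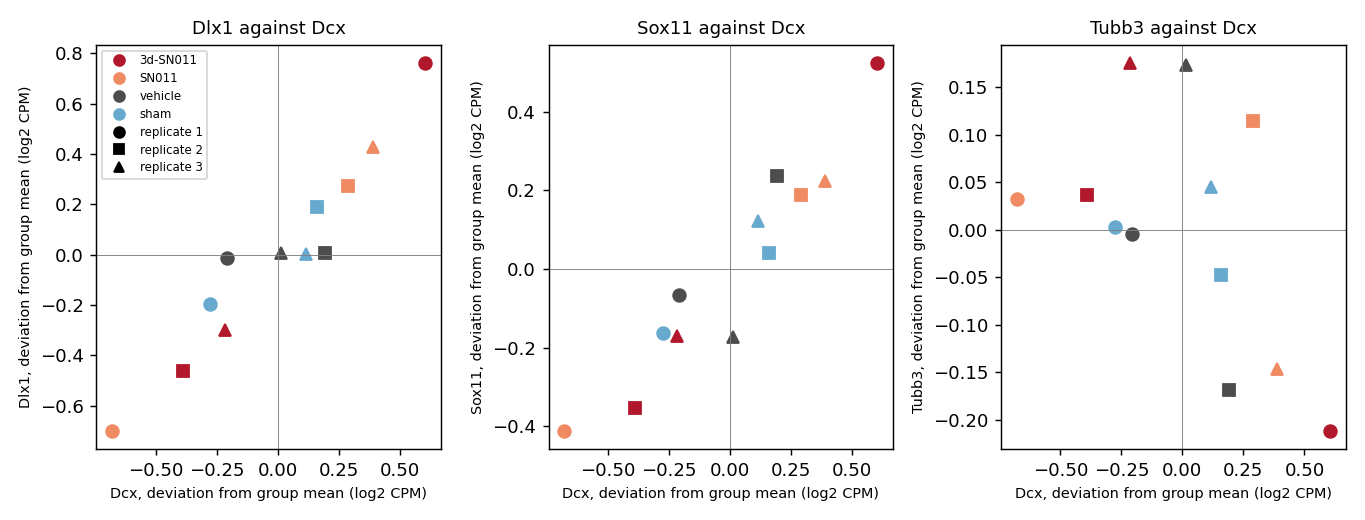
Deviation of log2 CPM from the group mean for Dlx1, Sox11 and Tubb3 (vertical axes) against that of Dcx (horizontal axis) in 12 libraries, with group as colour and replicate as shape. Dlx1 and Sox11 rise along Dcx (r = 0.96 and 0.95) while Tubb3 does not (r = -0.51).

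Of 25 other genes of neuroblasts and olfactory bulb interneurons, 6 rose and 13 fell in 3d-SN011 against vehicle, with a median log2 fold change of -0.27. Over all genes tested, 28.9% were called higher and 28.2% lower. Those that rose were Marcksl1, a substrate of protein kinase C (1.82 ± 0.23), Pax6, a factor of dopaminergic bulb interneurons (1.43 ± 0.20), Draxin, a guidance protein (1.38 ± 0.44), the tubulin gene Tubb2b (1.14 ± 0.22), Dpysl3 (1.10 ± 0.22) and the microtubule regulator Stmn1 (0.73 ± 0.22). The strongest falls by p were Tiam2, a Rac exchange factor (-1.54 ± 0.19, edgeR adjusted p = 3.04e-05), and Dlx5 (-1.26 ± 0.16, edgeR adjusted p = 3.57e-05). Gad1 and Gad2, the enzymes that make GABA, which striatal projection neurons also hold, had -2.22 ± 0.30 and -1.84 ± 0.35.

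Paralogs of the Dlx and Sp genes fell in 3d-SN011 against vehicle, where Dlx2 rose. Dlx5 had 7.63, 9.19 and 9.10 CPM in the 3d-SN011 replicates and 19.9, 21.9 and 20.3 CPM in vehicle. Dlx6, its neighbour, had 2.30, 8.75 and 15.9 CPM in 3d-SN011 and 40.4, 41.6 and 30.3 CPM in vehicle (log2 fold change -2.06 ± 0.45, edgeR adjusted p = 0.00173). Sp9, the paralog of Sp8, had 20.7, 15.5 and 25.5 CPM in 3d-SN011 and 42.5, 34.5 and 47.2 CPM in vehicle (-1.01 ± 0.18, edgeR adjusted p = 0.000499). For all 3 the groups did not overlap, which also held for 59.4% of all genes tested, and 28.2% of all genes tested were called lower. Sp9 and Dlx6 also mark striatal neurons, and Sp8 itself did not differ detectably. Sox12, the remaining SoxC gene, averaged 40.1 ± 9.21 CPM in 3d-SN011 and 34.5 ± 4.70 CPM in vehicle (log2 fold change 0.22 ± 0.16, edgeR adjusted p = 0.256).

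**Figure D5:**
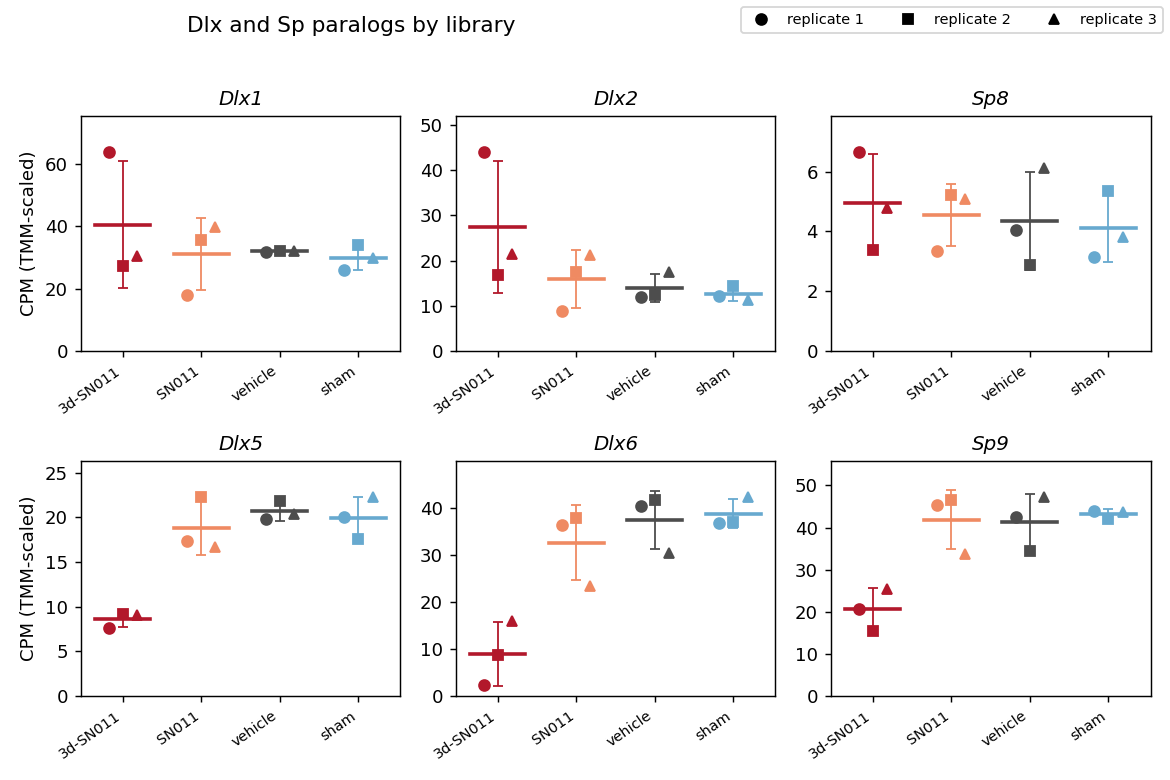
Level of Dlx1, Dlx2 and Sp8 (upper row) and of their paralogs Dlx5, Dlx6 and Sp9 (lower row) by library in TMM-scaled CPM (linear from 0) for 3d-SN011, SN011, vehicle and sham; lines are means and bars SDs (n = 3). Dlx5, Dlx6 and Sp9 in 3d-SN011 lie below every other library, whereas Dlx2 does not.

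Of 18 genes of neural stem cells and transit-amplifying progenitors, the earlier steps of the lineage, 14 rose, 1 fell and 3 were not called in 3d-SN011 against vehicle (median log2 fold change 1.36), where 28.9% of all genes tested were called higher and 28.2% lower. Notch1, a receptor that maintains neural stem cells, rose (1.38 ± 0.16, edgeR adjusted p = 2.30e-05), as did Rest, a repressor of neuronal genes (1.35 ± 0.15, edgeR adjusted p = 2.18e-05), and Hes5 fell (-1.69 ± 0.30, edgeR adjusted p = 0.000431). Several of these genes, such as Vim, Slc1a3 and Fabp7, are also made by astrocytes. All 8 reactive astrocyte and all 8 microglial markers rose too, with medians of 4.87 and 3.02. All 10 cell-cycle genes rose, with a median of 2.42 (Cdk1 3.65 ± 0.38, edgeR adjusted p = 1.58e-05; Pcna 1.24 ± 0.11, edgeR adjusted p = 1.22e-05), and which cells hold that RNA cannot be told from bulk tissue. In SN011 against vehicle, edgeR called 0 of the 18 and 0 of the 10, beside 0.0162% of all genes tested. In edgeR, 7 of the stem and progenitor genes and 6 of the cell-cycle genes had an unadjusted p under 0.05 (11.1% of all genes). DESeq2 called 1 of the 18 and 1 of the 10 in that comparison, and limma voom 3 of the 18 and 0 of the 10. The counts of both tools over all genes in that comparison are given above.

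Of 24 tested genes of migration and guidance, 13 fell and 3 rose, with a median log2 fold change of -0.58, where 28.2% of all genes tested were called lower and 28.9% higher. Mature neurons also make several of these genes, Robo2, Dcc and Reln among them, and 10 of 10 mature neuron and 10 of 10 projection neuron markers fell beside them. Their part in these values was not tested. Robo2, a receptor for Slit proteins, had -2.13 ± 0.22 (edgeR adjusted p = 1.58e-05) and Dcc, the netrin receptor, -2.89 ± 0.21 (edgeR adjusted p = 1.18e-05). Cxcr4, a chemokine receptor that microglia and other leukocytes also hold, rose by 3.21 ± 0.35 (edgeR adjusted p = 1.95e-05), as did Ntrk2 and Ntn1. Of 9 tested genes of neuronal injury and regrowth, which include Sox11 itself, 4 rose and 3 fell. Atf3 rose by 4.40 ± 0.56 and Jun by 1.55 ± 0.21. Gap43 and Ecel1 had lower means in 3d-SN011 than in vehicle, at 101.9 against 199.1 CPM and 17.6 against 44.9 CPM.

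Markers of other cells that hold some of the 9 genes moved as well. Ependymal cells line the ventricle next to the subventricular zone and hold Cd24a. Their 10 markers summed to 242, 161 and 170 CPM in the 3d-SN011 replicates, 82.4, 82.6 and 120 CPM in SN011, 62.0, 85.7 and 75.2 CPM in vehicle and 57.8, 63.1 and 57.3 CPM in sham. Against vehicle 8 of 10 rose and 0 fell, where 28.9% of all genes tested were called higher and 28.2% lower. Foxj1, the factor of motile ciliated cells, was among those that rose, at 1.71 ± 0.21 (edgeR adjusted p = 2.97e-05). No ependymal marker was at 0 in any group, and their part in the rise of Cd24a was not tested. All 10 markers of oligodendrocyte precursors, which hold Sox4 and Sox11 in part, rose (Cspg4 1.51 ± 0.17, edgeR adjusted p = 2.10e-05). These summed to 727 to 1041 CPM in 3d-SN011 and 422 to 491 CPM in vehicle, and their part in the rise of Sox4 was not tested. Neutrophil markers, of leukocytes that hold Cd24a, summed to 85.3 to 236 CPM in 3d-SN011 and 13.4 to 15.3 CPM in vehicle. Nearly all of that sum was Csf3r, which microglia also make, with 167.6 ± 80.0 CPM in 3d-SN011 and 12.5 ± 1.42 CPM in vehicle (SD, n = 3). S100a9, a granule gene of neutrophils, averaged 0.475 CPM in 3d-SN011 and 0.512 CPM in vehicle, and Mmp9 0.571 and 0.706 CPM. Other markers of the list were higher in 3d-SN011 at low levels. Mmp8 averaged 2.64 CPM in 3d-SN011 and 0.042 CPM in vehicle, S100a8 1.12 and 0.169 CPM, and Retnlg 0.252 and 0.064 CPM. Mmp8, S100a8 and Retnlg had too few counts to be tested. Of the 3 that could be tested, Csf3r alone was called, and Ly6g was at 0 in every SN011 and every sham library. Lymphocyte markers summed to 4.31 to 16.4 CPM in 3d-SN011 and 0.781 to 1.499 CPM in vehicle. Their part in the Cd24a value was not tested.

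Of 10 markers of the choroid plexus, which also lies in the ventricle, 9 fell in 3d-SN011 against vehicle and 0 rose. Over all genes tested, 28.2% were called lower. DESeq2 also called 9 of the 10 here, but limma voom called 1. Against sham, edgeR and DESeq2 each called 2 and limma voom called 0, where edgeR called 27.9% of all genes tested lower. The 10 markers summed to 123.4, 808 and 39.0 CPM in the 3d-SN011 replicates, 3114, 1090 and 2596 CPM in SN011, 1380, 2841 and 2216 CPM in vehicle and 2611, 1258 and 115 CPM in sham. Sham alone ran from 115 to 2611 CPM, so these markers varied between libraries of 1 group. Of 10 markers of striatal interneurons, 4 fell and 6 were not called, where 57.1% of all genes tested were called, 28.2% lower. Those that fell include Lhx6 at -1.06 ± 0.24 (edgeR adjusted p = 0.00234) and Th at -1.58 ± 0.34 (edgeR adjusted p = 0.00167). All 10 markers of projection neurons fell, with a median log2 fold change of -2.79. Of 8 endothelial markers, 5 were called higher and 3 were not called, where 57.1% of all genes tested were called, 28.9% higher.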

How the data were processed

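Per the labels, striatal RNA was taken up in Trizol, and sequencing of polyA+ libraries was paired-end. HISAT2, featureCounts and mm10 are named in the submitters' processing notes, with no version, annotation or strand setting given. The deposited tables hold whole-number counts per Ensembl gene, 1 table per library, which the authors did not normalize as far as the values show. Symbols matched 54409 of 54532 genes; positions are from GENCODE M21 (GRCm38). Replicates of each group differed beyond counting noise (chi-square per degree of freedom 4.79 to 78.2).

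Counts were tested in R 4.3.3 with edgeR 4.0.16: filterByExpr by group (minimum count 10), TMM scaling, 12 libraries in a quasi-likelihood fit with group as the only term, and Benjamini-Hochberg adjustment over 18537 genes (threshold 0.05). The SE is the log2 fold change divided by the root of F. The script was tested on simulated data. The 9 genes and the context lists were chosen with earlier results of these data known. Named context genes were the 2 called genes with the smallest adjusted p per list, family members and, for each of the 9, the genes most alike in deviations; other context genes were chosen after their values were seen. Alternatives were DESeq2 1.42.0, RLE scaling, a fit of 6 libraries, no filter, a replicate block, leaving out each replicate and, added after the data were seen, voom with quality weights in limma 3.58.1. Figures used matplotlib 3.10.9.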

Additional observations from a re-analysis of the deposited data

How the results depend on the processing

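Over the alternatives, the number of the 9 genes called stayed within 4 to 6 for 3d-SN011 against vehicle and against sham and 3 to 6 against SN011, and was 0 for SN011 against vehicle, SN011 against sham and vehicle against sham. Sox4, Cd24a, Igfbpl1 and Tubb3 were called in all 12 alternatives for 3d-SN011 against vehicle and against sham. Replicate numbers shared between groups did not pair the libraries: correlations of deviations ran from -0.293 to 0.143, and in 7 of 36 cases (each of the 12 libraries in each comparison it enters) a library matched its own number best. With the replicate number as a block, Dlx2 against vehicle (adjusted p = 0.0547) and Sox11 against sham (adjusted p = 0.0507) were no longer called (edgeR), and Sox4 in vehicle against sham was -0.0028 on the log2 scale. With limma voom the sign turned for Dcx in 3d-SN011 against sham (-0.0143); for Dlx2 (-0.22), Tubb3 (0.0112) and Sp8 (-0.0742) in SN011 against vehicle; for Dlx1 (-0.45), Dlx2 (-0.21), Sox11 (-0.16) and Sp8 (-0.12) in SN011 against sham; and for Dcx (-0.0049), Sox4 (-0.10) and Sp8 (-0.0477) in vehicle against sham. None of these was called, and the cause was not tested.

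Leaving out each replicate, the log2 fold change of 3d-SN011 against vehicle ranged from -0.44 to 0.11 for Dcx, -0.14 to 0.56 for Dlx1 and -0.0929 to 0.50 for Sp8. Against sham these were -0.34 to 0.21, -0.0483 to 0.66 and -0.0090 to 0.49, and against SN011 -0.29 to 0.26, -0.11 to 0.60 and -0.16 to 0.33. In SN011 against vehicle the ranges were -0.33 to 0.13 for Dcx, -0.25 to 0.24 for Dlx1, -0.0803 to 0.48 for Dlx2, -0.17 to 0.12 for Sox11, -0.12 to 0.0526 for Tubb3, -0.24 to 0.16 for Cd24a and -0.16 to 0.39 for Sp8. In SN011 against sham they were -0.24 to 0.22 for Dcx, -0.16 to 0.33 for Dlx1 and -0.0071 to 0.38 for Sp8. In vehicle against sham they were -0.0275 to 0.20 for Dcx, -0.0573 to 0.24 for Dlx2, -0.18 to 0.11 for Sox4, -0.14 to 0.0302 for Tubb3 and -0.24 to 0.32 for Sp8.

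Counts of all genes called moved by over 1.5 times in comparisons with few calls. SN011 against vehicle gave 3 genes, 601 without a filter, 443 with DESeq2, 19 with the block, 5 with 6 libraries, 1179 with limma voom and 0 to 513 with replicates left out. SN011 against sham gave 21, and 775 without a filter, 638 with DESeq2, 7 with 6 libraries, 1875 with limma voom and 0 to 694 with replicates left out. Vehicle against sham gave 0, and 5 without a filter, 5 with DESeq2, 16 with 6 libraries and 32 with limma voom. Sp8 had the fewest counts of the 9, 44 to 130 a library, and how far depth limits its test was not tested.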
